A study of Mus musculus with 8 samples.

Results

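The genes described here are 40 genes of the amino acid stress response that is directed by the transcription factor ATF4, taken by name from a list of its known targets and partners, out of 46078 genes in the count table. All 40 were matched to the table by their mouse symbol. When a cell lacks an amino acid, or when unfolded proteins gather in its endoplasmic reticulum, kinases phosphorylate the initiation factor eIF2, most protein synthesis slows, and the ATF4 message is translated more efficiently. ATF4 then pairs with other leucine zipper proteins, among them the C/EBP family, and turns on genes that import amino acids, make serine, glycine, proline and asparagine, and charge tRNAs. The same response includes CHOP, the product of Ddit3, and the factors that restart translation or lead to cell death when the stress lasts. In macrophage-like cells, part of this program is known to be engaged by bacterial products. The list was divided by role into 6 transcription factors, 7 stress effectors, 4 transporters, 6 genes of serine and one-carbon synthesis, 2 of proline synthesis, 4 other amino acid enzymes and 11 cytosolic tRNA synthetases.

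The RNA-Seq libraries were made from BV-2, a mouse microglial line grown in culture, with 2 biological replicates in each of 4 groups. Control cells are named in the labels as control, with no treatment listed. LPS cells received 100 ng/mL lipopolysaccharide (a bacterial endotoxin) for a time that the paper's methods give as 20 hours. AGE+LPS cells were given aged garlic extract at 0.5% v/v, and FruArg+LPS cells were given 3 mM of FruArg itself, a sugar-arginine Amadori compound that the extract contains, in each case 1 hour ahead of the same LPS dose. Neither compound was given without LPS in the libraries used here, and the labels describe 4 hours in serum-free medium before exposure. By the lane named in the labels, every replicate 1 was read in lane 3, and every replicate 2 in lane 6. The names of the count columns also set every replicate 2 apart by a further stamp that no replicate 1 carries. A difference between lanes therefore cannot be told apart from a difference between these series or replicates. Library totals for control cells were 2707500 and 8995052 counts. They were 8720784 and 12069807 with LPS, 6795464 and 6669072 with AGE+LPS, and 4692715 and 5822113 with FruArg+LPS. Replicate 1 of the control was therefore the shallowest library, with a count for 16341 genes. Replicate 1 of FruArg+LPS stood apart with a count for only 14607 genes, against 17057 to 18728 in the other 6 libraries. For FruArg+LPS against LPS, the DEG counts, Nupr1 and Ddit3 are therefore also given without it. Levels are given as CPM, the counts of a gene scaled to a common library total, with TMM factors applied, and values in pairs are replicates 1 and 2. Limits drawn from counts cover counting error only.

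The markers fitted the label of a macrophage-like line in part. Of 10 microglia and macrophage markers, Cd68 (331 CPM per kilobase of exon) and Fcgr3 (283) had the highest levels per length in control cells, and Csf1r, Cd68, Ptprc, Trem2 and Fcgr3 exceeded 100 CPM in every library. The markers that set resident microglia apart were low: Tmem119 was at 0.311 and 0.374 CPM and P2ry12 at 6.22 and 9.27 CPM in the control libraries. The summed level of the 10 markers lay between 1902 and 2733 CPM over the 8 libraries. With LPS 5 of the 9 tested were DEGs, all lower than in control cells, against 11.1% of all 12888 genes tested. Whether these lower marker levels had a part in the results was not tested. Markers of astrocytes, neurons and fibroblasts (4 genes each) summed to at most 2.57, 1.87 and 0.999 CPM in any library, with Slc1a2, Tubb3 and Pdgfrb the most abundant of each list. Aqp4, Aldh1l1, Rbfox3, Snap25, Syt1 and the oligodendrocyte markers Mog and Sox10 had no counts. Il1b, Tnf, Il6 and Nos2, standard readouts of LPS, were all DEGs with higher levels in LPS cells, and Nos2 went from 2.18 and 0.655 CPM in control cells to 758 and 808 CPM. Since each library is a bulk sample, a change in RNA per cell and a change in the cells present cannot be told apart.

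With LPS some of the ATF4 genes were higher and some lower than in control cells. Of the 39 that could be tested, 17 did not pass at any size of change. Among these 17, Stc2, Phgdh, Aldh1l2, Pycr1 and Mars passed when the lane was added to the fit as a replicate block. The regulators Ddit3, Nupr1, Cebpb and Ppp1r15a, the transport genes Slc3a2 and Slc6a9 and the synthetase Wars were more than 2-fold higher in LPS cells than in control cells, whereas the transporter Slc7a5 and the enzymes Pck2, Shmt2 and Psat1 were more than 2-fold lower. Asparagine synthetase (Asns), a textbook ATF4 target, lay between 313 and 371 CPM in the 8 libraries. Of the 40 genes, 39 passed edgeR's filter on low counts, since Vldlr had no counts in any library. Genes were called DEGs when the log2 fold change was 1 or more in either direction and edgeR's quasi-likelihood F-test gave an adjusted p below 0.05 (Benjamini-Hochberg over every gene tested). Between LPS and control cells, 7 of the 39 were DEGs with higher levels in LPS cells, against 11.5% of all 12888 genes tested, and 4 were DEGs with lower levels, against 11.1% of all genes. With no minimum on the fold change, 14 were higher (16.3% of all genes tested) and 8 were lower (14.3% of all genes tested). The median log2 fold change of the 39 was 0.11, beside 0.02 for all genes tested. Scaling by library size alone moved the median of all genes to -0.40 and the split of DEGs among the 39 to 6 higher and 10 lower. No share of all genes is given for that scaling, here or below, so such splits say nothing about the list.

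Of the 6 transcription factors, 4 had an adjusted p below 0.05, all of them higher in LPS cells (16.3% of all genes tested were higher), and their median log2 fold change was 1.27. The gene for ATF4 itself (Atf4; ENSMUSG00000042406, chromosome 15, 80255184 to 80257541 on GRCm38) was at 457 and 515 CPM in control cells, 760.4 and 874 CPM with LPS, 665 and 794 CPM with AGE+LPS and 638 and 749 CPM with FruArg+LPS. All 6 LPS-treated libraries exceeded both control libraries. The increase in LPS cells was 0.79 ± 0.21 (log2 fold change ± SE, edgeR adjusted p = 0.0214), that is 1.72-fold. That call was lost with library size scaling (log2 fold change 0.36, edgeR adjusted p = 0.208) and without replicate 1 (0.232) or replicate 2 (0.125) of the control, while the within-lane log2 ratios were 0.74 in lane 3 and 0.76 in lane 6. Over all the alternatives the adjusted p ran from 4.3e-05 to 0.232. ATF4 is controlled mainly at translation, which these counts do not measure.

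Ddit3 (ENSMUSG00000025408, chromosome 10, 127290774 to 127296288) encodes CHOP, a C/EBP family factor linked to death under lasting stress. It was at 138 and 101 CPM in control cells, 854 and 637 CPM with LPS, 461 and 278 CPM with AGE+LPS and 342 and 355 CPM with FruArg+LPS. The groups of LPS and control cells did not overlap, and the difference was 2.68 ± 0.26 on the log2 scale (edgeR adjusted p = 0.000111), or 6.42-fold. Nupr1 (ENSMUSG00000030717, chromosome 7, 126623249 to 126630861), which encodes a small chromatin-associated stress protein, had the largest fitted change of the 39, with 34.5 and 38.4 CPM in control cells, 300.2 and 289 CPM with LPS, 97.4 and 87.1 CPM with AGE+LPS and 57.3 and 122 CPM with FruArg+LPS. Its log2 fold change with LPS was 3.04 ± 0.21 (edgeR adjusted p = 2.2e-05), or 8.25-fold, and the within-lane values were 3.12 in lane 3 and 2.91 in lane 6. Replicates lay close together in control and LPS cells and farther apart in FruArg+LPS cells, where replicate 1 was the lower. Cebpb, a C/EBP factor that ATF4 can pair with and a known LPS-responsive gene, was at 151 and 136 CPM in control and 607 and 339 CPM in LPS libraries (1.76 ± 0.29 on the log2 scale, edgeR adjusted p = 0.00162). The LPS libraries differed more from each other than the control libraries did, with replicate 1 the higher. Cebpb overlaps Tmem189 on the opposite strand in the annotation, and Ddit3 overlaps Mars. Whether the counting used strand is not given in the sources used here.

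Cebpg and Atf5 did not pass the test between LPS and control cells. Cebpg, a further pairing partner of ATF4, ranged only from 113 to 148 CPM over the 8 libraries. Atf5, a paralog of ATF4 with a similar translational control, was at 28 and 21.9 CPM in control cells, 18.1 and 19.4 CPM with LPS, 34.8 and 35.9 CPM with AGE+LPS and 50.9 and 36.1 CPM with FruArg+LPS. With library size scaling its adjusted p was 0.035, with the lower level in LPS cells. Both LPS libraries lay below the control libraries, and the libraries of both co-treatments lay above all others.

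Among the stress effectors, Ppp1r15a, Trib3 and Eif4ebp1 were higher with LPS. Ppp1r15a (GADD34) guides the phosphatase that reactivates eIF2. Its levels were 47.9 and 40.1 CPM in control cells, 239.6 and 147 CPM with LPS, 193 and 80.6 CPM with AGE+LPS and 190.5 and 149 CPM with FruArg+LPS, and its log2 fold change was 2.18 ± 0.27 (edgeR adjusted p = 0.000383). In each LPS-treated group replicate 1 was above replicate 2. Trib3, a pseudokinase that binds ATF4 and CHOP, was at 138 and 113 CPM in control cells, 295 and 168 CPM with LPS, 270.5 and 154 CPM with AGE+LPS and 262 and 239 CPM with FruArg+LPS. The change with LPS of 0.92 ± 0.28 (edgeR adjusted p = 0.0332) was unequal in the lanes, with 1.09 in lane 3 and 0.57 in lane 6. Without replicate 1 of LPS it was 0.46 (edgeR adjusted p = 0.118). The edgeR adjusted p was 0.177 without replicate 2 of the control and 0.187 with library size scaling. Eif4ebp1, which encodes the translation repressor 4E-BP1, rose from 37.9 and 37.5 CPM to 76.2 and 57.8 CPM (0.86 ± 0.22, edgeR adjusted p = 0.0172). That call was lost with library size scaling (0.152) and without replicate 1 (0.113) or replicate 2 (0.145) of the control.

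The remaining effectors were flat, low or absent. Sesn2, a leucine sensor upstream of mTORC1, was at 81.8 and 57.6 CPM in control and 102 and 55.1 CPM in LPS libraries, and in each group replicate 1 was the higher. Chac1, which encodes a glutathione-degrading enzyme and is often among the most responsive ATF4 genes, had between 3 and 17 counts per library, or 0.933 and 1.22 CPM in control and 1.5 and 1.19 CPM in LPS libraries. Its log2 fold change of 0.29 ± 0.58 (edgeR adjusted p = 0.741) was smaller than its error and had the opposite sign with library size scaling (-0.13). Stc2, which encodes the secreted glycoprotein stanniocalcin 2, was at 10.3 and 10.5 CPM in control cells, 7 and 4.78 CPM with LPS, 8.13 and 6.67 CPM with AGE+LPS and 2.52 and 2.85 CPM with FruArg+LPS. Its lower level with LPS passed the threshold with the replicate block, that is with the lane as a term of the fit (-0.84 ± 0.30, edgeR adjusted p = 0.0206), and with library size scaling (0.0205), against 0.107 with neither. Without replicate 1 of LPS the adjusted p in edgeR was 0.0407. For Vldlr, a lipoprotein receptor, 0 counts over the 8 libraries allow a level of up to 0.0531 CPM. That limit is by library totals, without TMM factors, and covers counting error only.

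The transporters differed in direction. Slc3a2 (CD98), the heavy chain that carries several amino acid exchangers to the membrane, was at 121 and 132 CPM in control cells, 366 and 369 CPM with LPS, 314 and 283 CPM with AGE+LPS and 481 and 481 CPM with FruArg+LPS. With LPS it was 2.98-fold higher (1.57 ± 0.20 on the log2 scale, edgeR adjusted p = 0.000402), and replicates differed by less than the groups did. Slc7a5 (LAT1; ENSMUSG00000040010, chromosome 8, 121881150 to 121907694), one of the light chains that pair with it and the importer of large neutral amino acids, moved the other way. It was at 48.2 and 45.8 CPM in control cells, 15.7 and 14.2 CPM with LPS, 37.1 and 28.6 CPM with AGE+LPS and 14.4 and 16.5 CPM with FruArg+LPS, and in LPS cells it was 3.06-fold lower than in control cells (log2 fold change -1.61 ± 0.23, edgeR adjusted p = 0.000759). Both AGE+LPS libraries lay above the LPS and FruArg+LPS libraries and below the control libraries. Slc6a9 (GlyT1), a glycine transporter, was at 7.47 and 8.7 CPM in control cells, 21.5 and 21.8 CPM with LPS, 25.8 and 28.3 CPM with AGE+LPS and 51.1 and 41.1 CPM with FruArg+LPS. Its log2 fold change with LPS was 1.44 ± 0.27 (edgeR adjusted p = 0.0036). Slc38a2 (SNAT2), an importer of small neutral amino acids, did not pass edgeR's test in any of the 6 comparisons, with or without the replicate block, and its libraries split by lane rather than by group, with 356 and 457 CPM in control and 339.6 and 473 CPM in LPS cells.

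Several enzymes that make serine and proline were lower with LPS. Of the 6 serine and one-carbon genes, 3 had an adjusted p below 0.05, all lower in LPS cells (14.3% of all genes tested were lower), and their median log2 fold change was -0.68. Psat1 (ENSMUSG00000024640, chromosome 19, 15904678 to 15947337), the aminotransferase of the serine pathway, was the most abundant of them per kilobase of exon in every group. It was at 709.5 and 677 CPM in control cells, 335 and 313 CPM with LPS, 482 and 516 CPM with AGE+LPS and 410.1 and 344 CPM with FruArg+LPS. The control libraries lay above all others, the LPS libraries were lowest, and the log2 fold change with LPS was -1.06 ± 0.20 (edgeR adjusted p = 0.00404). Shmt2, which turns serine into glycine in mitochondria, was at 133 and 128 CPM in control and 70.9 and 46 CPM in LPS libraries (-1.12 ± 0.24, edgeR adjusted p = 0.00708). Psph, the phosphatase of the last step to serine, had 41.1 and 47.2 CPM and 24.6 and 24.7 CPM (-0.81 ± 0.22, edgeR adjusted p = 0.0206). The Psph call was lost without replicate 1 (0.082) or replicate 2 (0.225) of the control, and the gene overlaps the far more abundant Cct6a on the opposite strand.

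The first enzyme of the serine pathway, Phgdh, was at 123 and 110.3 CPM in control cells, 97.7 and 58.2 CPM with LPS, 128 and 87.4 CPM with AGE+LPS and 151 and 98.1 CPM with FruArg+LPS. Replicate 1 exceeded replicate 2 in every group. The lower level with LPS passed with the replicate block (-0.60 ± 0.17, edgeR adjusted p = 0.00331), with library size scaling (0.0188) and without replicate 1 of LPS (0.00362), against 0.145 with none of these. Mthfd2 and Aldh1l2 act on mitochondrial folate. Mthfd2 hardly differed between groups, with 187 and 215 CPM in control and 197 and 196 CPM in LPS libraries. Aldh1l2, at 77.5 and 60.7 CPM in control and 136 and 89.4 CPM in LPS libraries, was the 1 gene of these 6 that passed as higher in LPS cells, with the replicate block (0.72 ± 0.16, edgeR adjusted p = 0.000415, against 0.0511 without it). DESeq2 gave 0.0361, whereas with library size scaling the value was 0.33 (edgeR adjusted p = 0.338). Without replicate 2 of LPS the value was 1.03. The gene overlaps D10Wsu102e on the opposite strand. For proline, Aldh18a1, which makes the precursor from glutamate, was at 146 and 134 CPM in control cells, 86.2 and 69.1 CPM with LPS, 143 and 116 CPM with AGE+LPS and 103 and 83.3 CPM with FruArg+LPS. Its log2 fold change with LPS was -0.82 ± 0.21 (edgeR adjusted p = 0.0157), a call lost without replicate 1 (0.141) or replicate 2 (0.0753) of the control. Pycr1, the reductase of the final step, held only 2 to 40 counts per library, and its lower level with LPS (-1.10 ± 0.41 with the replicate block) passed there (edgeR adjusted p = 0.0279) and with library size scaling (0.0432), against 0.141 with neither and 0.122 with the block and the 4 groups in 1 fit.

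Of the other amino acid enzymes, 1 of 4 had an adjusted p below 0.05, lower in LPS cells (14.3% of all genes tested were lower). Pck2 (ENSMUSG00000040618, chromosome 14, 55540266 to 55551242), the mitochondrial enzyme that makes phosphoenolpyruvate, was at 137 and 107 CPM in control cells, 47 and 37.5 CPM with LPS, 95.3 and 75.8 CPM with AGE+LPS and 94.9 and 64.4 CPM with FruArg+LPS. It was 2.82-fold lower in LPS than in control cells (-1.50 ± 0.23 on the log2 scale, edgeR adjusted p = 0.00116), and both co-treatments lay between. Asns (ENSMUSG00000029752, chromosome 6, 7675169 to 7693254) makes asparagine and is widely used as a reporter of the amino acid response. It was at 325 and 318 CPM in control cells, 337 and 338 CPM with LPS, 346 and 371 CPM with AGE+LPS and 313 and 329.7 CPM with FruArg+LPS. Its log2 fold change with LPS was 0.10 ± 0.19 (edgeR adjusted p = 0.722), and with library size scaling it was -0.32, against the shift of -0.40 for all genes. Gpt2, a mitochondrial alanine aminotransferase, was at 70 and 62.7 CPM in control and 60.5 and 42.6 CPM in LPS libraries and did not pass the test, except as lower with library size scaling (edgeR adjusted p = 0.0334). Cth, which makes cysteine from cystathionine, was near the detection limit with 7 to 49 counts per library.

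**Figure D1:**
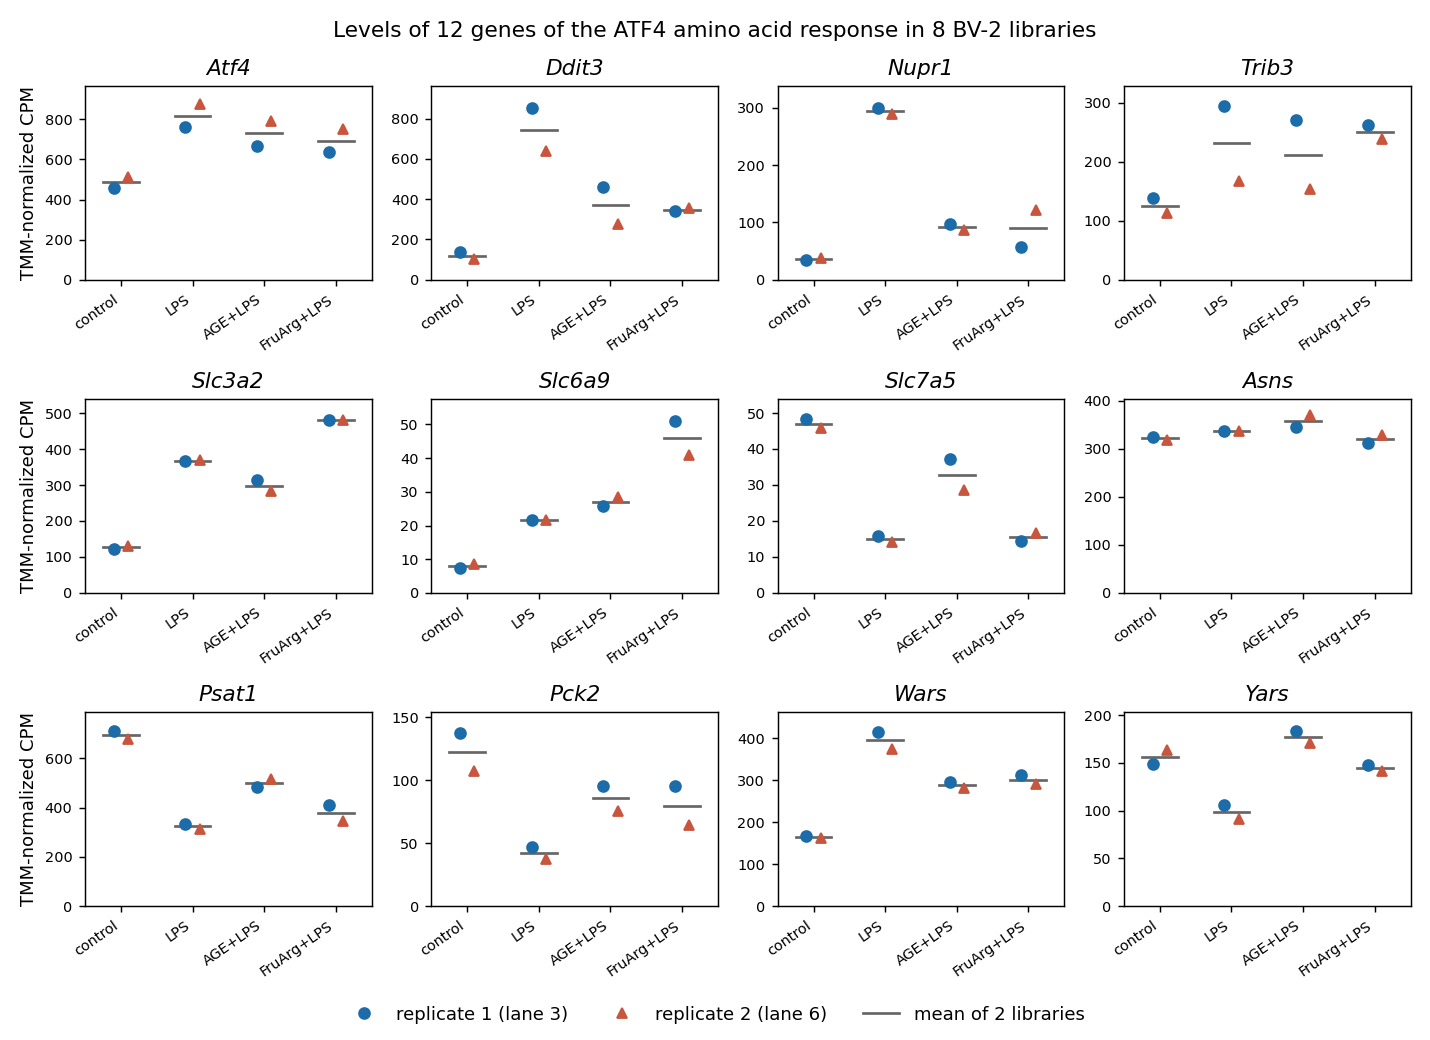
Levels of 12 of the genes in each of the 8 libraries, as TMM-normalized CPM on axes that start at 0; circles are replicate 1 (lane 3), triangles replicate 2 (lane 6) and lines the mean of the 2 libraries of a group. Ddit3 and Nupr1 were highest in the LPS libraries, Slc7a5, Psat1, Pck2 and Yars were lowest there or close to it, and Asns lay between 313 and 371 CPM throughout.

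The tRNA synthetases, which join amino acids to their tRNAs, included genes that rose, genes that fell and 4 that did not pass, and with library size scaling Wars alone rose and 4 fell. Among the 11, 5 were higher (16.3% of all genes tested) and 2 lower (14.3%) in LPS cells at an adjusted p below 0.05, and their median log2 fold change was 0.11. Wars (tryptophan), which interferon is also known to induce, was at 166 and 162 CPM in control cells, 416 and 375 CPM with LPS, 296 and 280.5 CPM with AGE+LPS and 312 and 292 CPM with FruArg+LPS. It was the only DEG of the group (1.30 ± 0.20 on the log2 scale, edgeR adjusted p = 0.00117), and the co-treated libraries lay between control and LPS libraries. Aars (alanine) rose from 463 and 489.8 CPM to 920.5 and 813 CPM (0.90 ± 0.21, edgeR adjusted p = 0.0111) and Nars (asparagine) from 454 and 529 CPM to 836 and 918 CPM (0.87 ± 0.21, edgeR adjusted p = 0.0138). Eprs, whose protein charges both glutamate and proline tRNAs, was at 705 and 809 CPM and 1170.5 and 1292 CPM (0.74 ± 0.22, edgeR adjusted p = 0.0319), and Sars (serine) at 651 and 658 CPM and 1097 and 961 CPM (0.69 ± 0.22, edgeR adjusted p = 0.0377).

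Lower levels with LPS were found for Yars (tyrosine) and Iars (isoleucine). Yars was at 149 and 164 CPM in control cells, 105 and 91.3 CPM with LPS, 184 and 171 CPM with AGE+LPS and 147 and 142 CPM with FruArg+LPS, with a log2 fold change of -0.64 ± 0.20 (edgeR adjusted p = 0.0361) between LPS and control, and it overlaps C77080 on the opposite strand. Iars was at 91.5 and 100.0 CPM in control and 62.1 and 60.9 CPM in LPS libraries (-0.60 ± 0.20, edgeR adjusted p = 0.0425), and DESeq2 gave an adjusted p of 0.0782. Mars (methionine) was lower with the replicate block (-0.60 ± 0.16, edgeR adjusted p = 0.00242), with library size scaling (0.0167) and without replicate 1 of LPS (0.00838), against 0.13 with none of these. Gars, Lars and Tars (glycine, leucine and threonine) did not pass with or without the replicate block, and went from 267 and 269.8, 207 and 216 and 158 and 178 CPM to 289 and 261, 216 and 228 and 129 and 146 CPM. With library size scaling Tars passed as lower (edgeR adjusted p = 0.0243). With library size scaling the calls of Aars, Nars, Sars and Eprs were lost as well, with log2 fold changes between 0.27 and 0.48. Without 1 control library, calls of Aars, Nars, Sars, Eprs, Iars and Yars were lost, and Wars kept its call. The call of Sars was also lost without replicate 1 of LPS (edgeR adjusted p = 0.0779), and those of Iars (0.0518) and Yars (0.0768) without replicate 2 of LPS. Of the 22 genes of the list with an adjusted p below 0.05, 12 kept it without replicate 1 of the control and 11 without replicate 2, and all 11 DEGs were DEGs in both cases.

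Levels can be compared between genes only per length of exon. In control cells the highest levels per kilobase were those of Atf4 (206 CPM per kilobase), Psat1 (163), Sars (127), Asns (118) and Nars (113). In LPS cells Ddit3 was at 435 CPM per kilobase, above Atf4 (347) and Cebpb (314), whereas in control cells it had been at 69.6. The light chain Slc7a5 was far below the heavy chain Slc3a2 in every group, with 12.7 against 35.8 CPM per kilobase in control cells and 4.04 against 104 in LPS cells.

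Adding AGE to LPS was compared with LPS alone to see how the extract changed the response. The clearest difference was in Nupr1, which was 3.19-fold lower in AGE+LPS than in LPS cells (-1.67 ± 0.20 on the log2 scale, edgeR adjusted p = 0.0389), with log2 ratios of -1.62 in lane 3 and -1.73 in lane 6. The adjusted p over the alternatives ran from 1.1e-28 to 0.044. It was the 1 DEG among the 39 genes tested, against 0.503% of all 12317 genes tested that were lower in AGE+LPS cells, and 0 were higher, against 0.292%. DESeq2 called 2 higher and 2 lower DEGs of the list and 529 of all genes. At an unadjusted p below 0.05 there were 12 of the 39. No share of all genes is given for that threshold, so the count says nothing about the list. With the replicate block, 2 were lower DEGs (4.82% of all genes) and 3 were higher DEGs (4.91% of all genes). At any size of change, the replicate block gave 15 higher, against 19.3% of all genes tested, and 7 lower, against 21%. In this blocked fit the SE was nearly the same for well-counted genes, with 0.0965 for Atf4, 0.0960 for Cebpb and 0.0967 for Trib3. Such an SE does not measure how far the lanes differ for a single gene, and the small adjusted p values carry the same limit.

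Ddit3 was the other factor with a lower level. It went from 854 and 637 CPM in LPS libraries to 461 and 278 CPM in AGE+LPS libraries, which did not overlap, and with the replicate block the value was -1.04 ± 0.10 (edgeR adjusted p = 1.8e-16), against -1.01 ± 0.30 (0.153) without it. DESeq2 gave an adjusted p of 0.0323, and the adjusted p over the alternatives ran from 1.8e-16 to 0.4. Atf4 did not pass (edgeR adjusted p = 0.767, and 0.176 with the replicate block). Atf5 was higher with the replicate block (0.92 ± 0.15, edgeR adjusted p = 1.9e-07, against 0.0987 without it). Ppp1r15a was lower only with the replicate block (-0.57 ± 0.10, edgeR adjusted p = 1.9e-06, against 0.616). Its log2 ratios of -0.31 in lane 3 and -0.87 in lane 6 were unequal, which that SE does not reflect. Without replicate 2 of AGE+LPS its value was 0.01.

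Several genes that were low in LPS cells were higher in AGE+LPS cells, in edgeR with the replicate block. Slc7a5, Pck2 and Yars also passed in DESeq2 (adjusted p 0.0329, 0.0233 and 0.0403). The same LPS libraries stand in both comparisons, so a value low in them by chance would give opposite signs. How often that would occur with no change was not tested. Of the 22 genes of the list that passed with the block, 13 also did with the 4 groups in 1 fit with that block, and 9 did not. These were Ppp1r15a (edgeR adjusted p = 0.0546), Aldh1l2 (0.0735), Gars (0.103), Cth (0.132), Slc3a2 (0.134), Tars (0.134), Psph (0.214), Eprs (0.221) and Shmt2 (0.262). Slc7a5 rose by 1.12 ± 0.16 on the log2 scale in that paired fit (edgeR adjusted p = 2.9e-09, against 0.0812 without the block), and the log2 ratios were 1.24 in lane 3 and 1.01 in lane 6. Pck2 rose by 1.02 ± 0.11 (edgeR adjusted p = 2e-13, against 0.0889), with 1.02 in lane 3 and 1.01 in lane 6. In the serine and proline pathways the blocked values were 0.62 ± 0.10 for Psat1 (adjusted p 4e-08, without block 0.166), 0.49 ± 0.10 for Phgdh (6.4e-05, without block 0.506) and 0.48 ± 0.14 for Psph (0.00451, without block 0.318). They were 0.74 ± 0.10 for Aldh18a1 (1.9e-09, without block 0.159) and 0.28 ± 0.11 for Shmt2 (0.0378, without block 0.694), and without replicate 2 of LPS the Shmt2 value was -0.02. Cth and Gpt2 also passed with the block, at 1.10 ± 0.32 (0.00366, without block 0.222) and 0.68 ± 0.11 (1.5e-07, without block 0.246), though Cth is counted from few reads. Aldh1l2 and Slc3a2 were lower with the block, at -0.44 ± 0.11 (0.00044, without block 0.414) and -0.30 ± 0.10 (0.00769, without block 0.494).

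The synthetases moved in both directions here too. With the replicate block, Yars (0.85 ± 0.10, edgeR adjusted p = 3e-12, against 0.0929 without it), Mars (0.72 ± 0.11, 9.6e-09 against 0.255) and Iars (0.50 ± 0.11, 8.2e-05 against 0.278) were higher in AGE+LPS than in LPS cells. Gars and Tars passed at 0.34 ± 0.10 (0.00266 against 0.442) and 0.29 ± 0.10 (0.012 against 0.515) in the same blocked fit. Wars (-0.45 ± 0.10, 4.8e-05 against 0.297) and Eprs (-0.26 ± 0.10, 0.0254 against 0.636) were lower with the block. Aars, Nars, Sars and Lars did not pass in either fit.

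FruArg was compared with LPS alone in the same way, and these LPS libraries are the ones used for AGE. Without the block edgeR called 0 DEGs among the 39 genes, as among all 12071 genes tested (0%). DESeq2 called Ddit3 (adjusted p 0.00566) and Nupr1 (0.000451), both lower, and no higher gene of the list, among 196 DEGs of all genes. There were 7 of the 39 at an unadjusted p below 0.05, again without a share of all genes. Without replicate 1 of FruArg+LPS there were 57 DEGs among all genes and 0 among the 39, and without replicate 2 there were 1549 and, of the 39, 3 higher and 2 lower. With the replicate block 2 were lower DEGs, against 3.48% of all genes tested, and 2 were higher, against 2.87%. At any size of change, that paired fit gave 7 higher, against 8.23% of all genes tested, and 3 lower, against 9.36%.

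Nupr1 and Ddit3 were again the regulators with lower levels. Nupr1 was -1.79 ± 0.19 with the replicate block on the log2 scale (edgeR adjusted p = 3.4e-11, against 0.18 without it), and its log2 ratios of -2.39 in lane 3 and -1.24 in lane 6 were unequal. Without replicate 1 of FruArg+LPS the Nupr1 value was -1.26 (edgeR adjusted p = 0.192), and without replicate 2 it was -2.36 (6.72e-06). Over the alternatives its adjusted p ran from 3.4e-11 to 0.192. Ddit3 was -1.07 ± 0.19 (edgeR adjusted p = 1.4e-05 with the replicate block, against 0.209 without it), with -1.32 in lane 3 and -0.84 in lane 6. Its value was -1.06 (edgeR adjusted p = 0.464) without replicate 1 and -1.12 (0.0447) without replicate 2 of FruArg+LPS. Higher levels with the replicate block were found for Atf5 (1.20 ± 0.23, edgeR adjusted p = 7.6e-05, against 0.213), Slc6a9 (1.09 ± 0.22, 0.000148 against 0.213) and Pck2 (0.90 ± 0.19, 0.000267 against 0.286). Phgdh (0.70 ± 0.18, 0.00332 against 0.406) and Cebpb (0.54 ± 0.19, 0.0315 against 0.518) were higher as well with the block. So were Yars (0.57 ± 0.18, 0.0163 against 0.369) and Mars (0.52 ± 0.19, 0.0422 against 0.454), and Aldh1l2 was lower (-0.64 ± 0.19, 0.011 against 0.362). Of the genes that passed with the block, only Nupr1 and Ddit3 passed in DESeq2. The DESeq2 adjusted p of the others ran from 0.0554 (Atf5) to 0.56 (Mars). The lanes were unequal for Mars, with 0.20 in lane 3 and 0.82 in lane 6, for Aldh1l2, with -0.996 in lane 3 and -0.300 in lane 6, and for Atf5, with 1.49 in lane 3 and 0.90 in lane 6. Slc6a9 (1.25 and 0.91) and Pck2 (1.01 and 0.78) were also higher in lane 3, which holds the FruArg+LPS library with few genes counted. For Phgdh, Cebpb and Yars lane 6 had the larger ratio. Slc7a5, at 14.4 and 16.5 CPM in FruArg+LPS libraries, overlapped its level in LPS libraries.

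**Figure D2:**
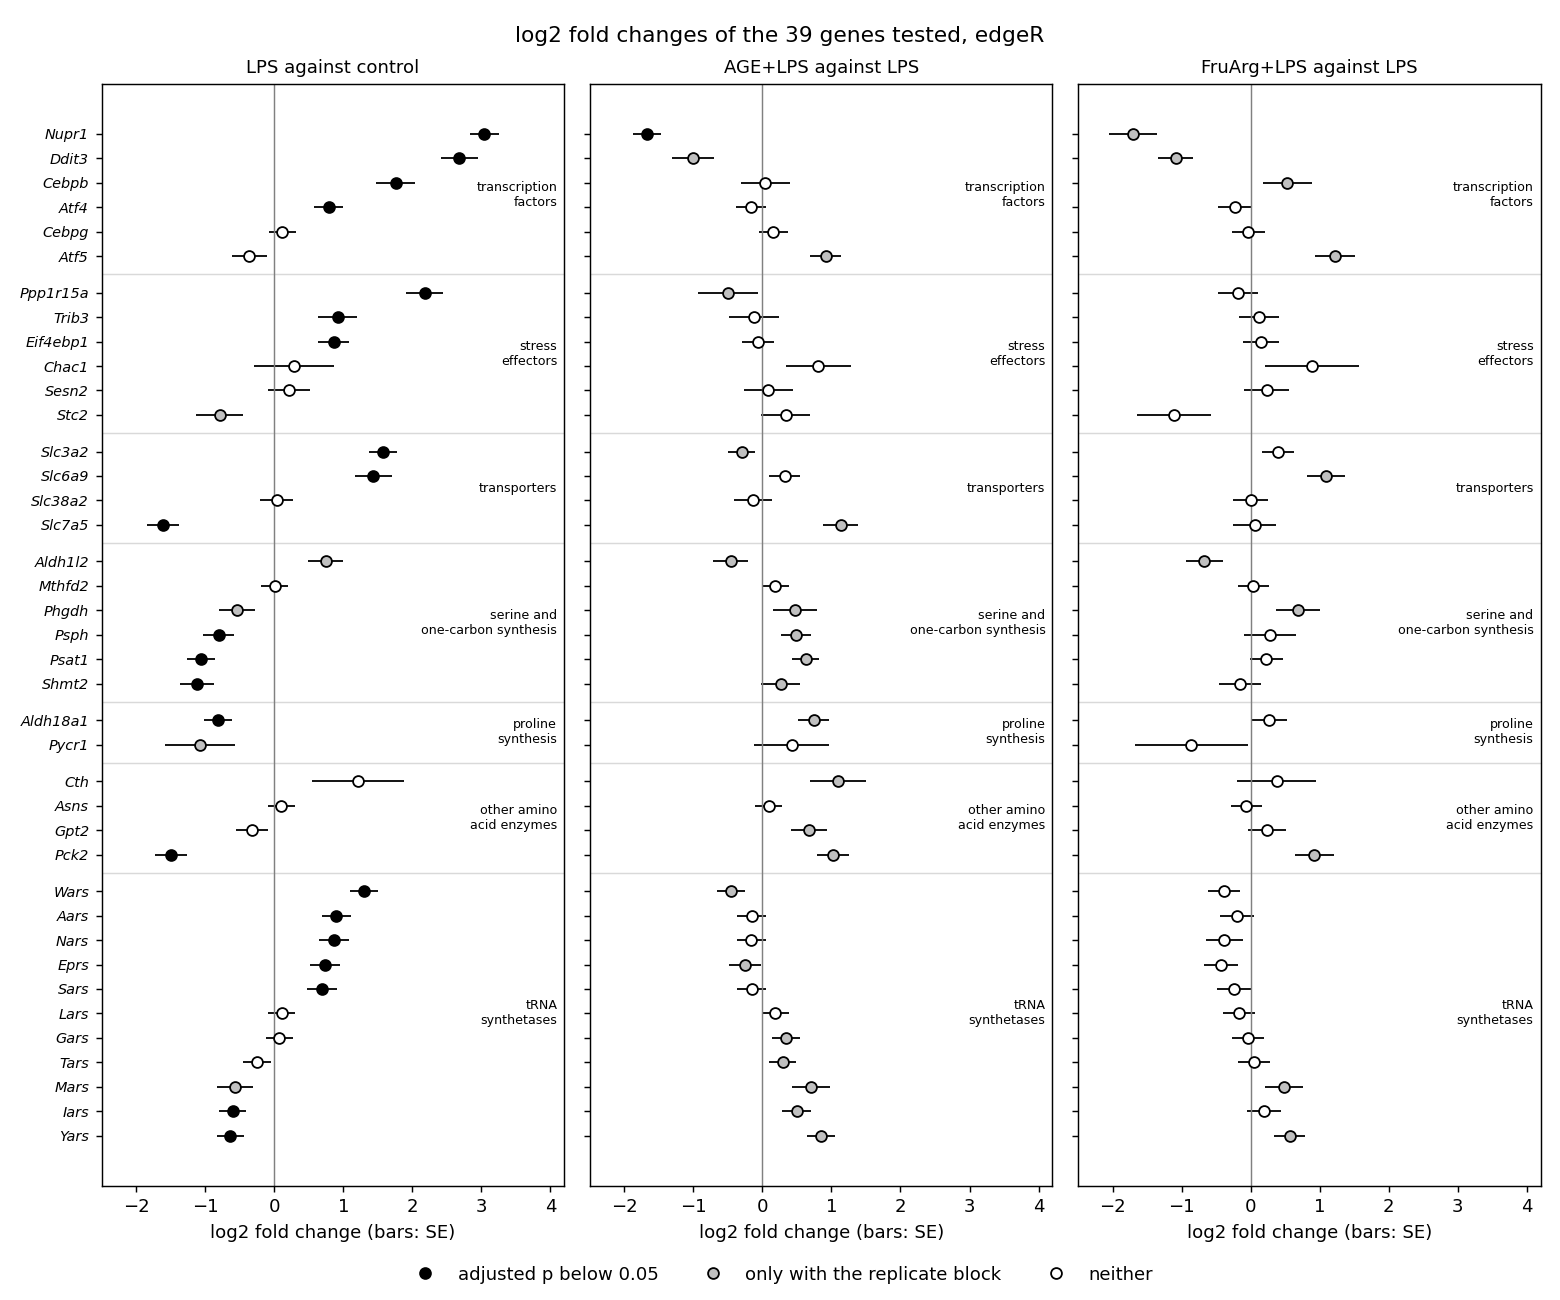
log2 fold changes of the 39 genes tested, grouped by role, in LPS against control (left), AGE+LPS against LPS (middle) and FruArg+LPS against LPS (right); bars are the SE of edgeR's fit without the replicate block, black points have an adjusted p below 0.05 there, grey points only with the block, and open points in neither. Nupr1 and Ddit3 had the largest positive values with LPS (3.04 and 2.68) and the largest negative values among the transcription factors in both co-treatments.

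The co-treatments were also compared with each other, which is the test of a difference between their effects. Without the block edgeR called 0 of the 39 genes and 0 of all 11915 genes tested (0%), and DESeq2 called 0 of the 39. At an unadjusted p below 0.05 there were 4 of the 39, for which no share of all genes is given. With the replicate block 1 gene was higher in FruArg+LPS cells at any size of change (2.23% of all genes tested) and 1 was lower (0.965% of all genes tested). These were Slc3a2, higher by 0.69 ± 0.17 (edgeR adjusted p = 0.0272, against 0.837 without the block), and Slc7a5, at -1.08 ± 0.25 (0.0211, against 0.837). The log2 ratios of Slc7a5 were -1.36 in lane 3 and -0.79 in lane 6. Stc2 was lower in both FruArg+LPS libraries (2.52 and 2.85 CPM) than in both AGE+LPS libraries (8.13 and 6.67 CPM), but the difference did not pass in either fit (edgeR adjusted p = 0.837 and, with the replicate block, 0.136). With the block and the 4 groups in 1 fit, the lowest of the alternatives, the adjusted p in edgeR was 0.0472 for Stc2 and 0.0397 for Slc6a9. DESeq2 gave 0.991 for both genes. For Slc6a9 the fit of this pair of groups gave 0.837 in edgeR without the block and 0.0532 with it. Nupr1 and Ddit3 did not pass either, and a p above the threshold does not show that the co-treatments act alike.

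Each co-treatment was also compared with control cells, the same libraries that the LPS comparison used. In AGE+LPS cells 7 of the 39 were higher DEGs, against 7.64% of all 12449 genes tested, and 0 were lower, against 7.41%. For the lower genes, DESeq2 also called 0, and with no minimum on the fold change the count was 1, Shmt2 (-0.88 ± 0.21, edgeR adjusted p = 0.0194). At an unadjusted p below 0.05 there were 17 of the 39 in either direction, a count without a share of all genes beside it. The 7 higher DEGs were Cebpb (1.78 ± 0.26, edgeR adjusted p = 0.00177), Slc6a9 (1.74 ± 0.25, 0.00173), Ppp1r15a (1.66 ± 0.37, 0.0128), Ddit3 (1.65 ± 0.28, 0.00373), Nupr1 (1.35 ± 0.20, 0.00188), Slc3a2 (1.25 ± 0.19, 0.0021) and Cth (2.32 ± 0.62, 0.0296). The Cth call was lost without replicate 2 of the control (edgeR adjusted p = 0.303). The Shmt2 call was lost without replicate 1 (0.0974) or replicate 2 (0.0884) of the control. Slc7a5, Psat1 and Pck2 were lower than in control cells with the replicate block, at -0.52 ± 0.17 (edgeR adjusted p = 0.0156, against 0.171 without it), -0.46 ± 0.15 (0.0128 against 0.141) and -0.50 ± 0.15 (0.00603 against 0.16). Atf4 was higher with the block, at 0.60 ± 0.15 (0.00119 against 0.0709), and in DESeq2 (0.0329).

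Smaller increases in AGE+LPS cells were those of Wars (0.83 ± 0.19, edgeR adjusted p = 0.0134), Eif4ebp1 (0.78 ± 0.20, 0.0239), Aars (0.72 ± 0.20, 0.0314) and Nars (0.69 ± 0.21, 0.0464). All 4 calls were lost without either control library (adjusted p 0.126 to 0.388 in edgeR) and with library size scaling (0.0532 to 0.164), and that of Nars also without replicate 2 of AGE+LPS (0.0594). With the block the values were also 0.72 ± 0.15 for Trib3 (0.00013 against 0.0849), 0.55 ± 0.19 for Atf5 (0.0167 against 0.147) and 0.51 ± 0.15 for Sars (0.00696 against 0.112). They were 0.46 ± 0.15 for Eprs (0.0166 against 0.187) and 0.39 ± 0.14 for Gars (0.0288 against 0.195), and DESeq2 gave 0.0395 for Trib3. With the block and the 4 groups in 1 fit, the calls of Atf5 (0.0598) and Gars (0.052) were lost.

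In FruArg+LPS cells 7 of the 39 were higher DEGs than in control cells, against 9.59% of all 12038 genes tested, and 3 were lower, against 7.84%. The higher genes were Slc6a9 (2.51 ± 0.27, edgeR adjusted p = 0.000584), Cebpb (2.27 ± 0.27, 0.00103), Ppp1r15a (1.98 ± 0.22, 0.000701), Slc3a2 (1.95 ± 0.19, 0.000407), Ddit3 (1.58 ± 0.22, 0.0019), Nupr1 (1.33 ± 0.34, 0.0271) and Trib3 (1.02 ± 0.20, 0.00835). The lower genes were Stc2 (-1.91 ± 0.43, 0.0169), Slc7a5 (-1.57 ± 0.24, 0.00288) and Shmt2 (-1.29 ± 0.22, 0.00482). Stc2 had only 11 and 15 counts in the FruArg+LPS libraries. Trib3 lost its call without replicate 2 of the control (edgeR adjusted p = 0.102), and so did Stc2 without replicate 1 (0.0996) or replicate 2 (0.179). Nupr1 lost it with library size scaling (0.0677), and its value was 1.78 without replicate 1 and 0.66 without replicate 2 of FruArg+LPS.

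Changes of less than 2-fold against control were found in FruArg+LPS cells for Eif4ebp1 (0.99 ± 0.21, edgeR adjusted p = 0.0117), Wars (0.90 ± 0.18, 0.00992), Aars (0.68 ± 0.21, 0.0495) and Psat1 (-0.85 ± 0.20, 0.0183). All 4 calls were lost without either control library (adjusted p 0.0525 to 0.28 in edgeR), that of Aars also without replicate 2 of FruArg+LPS (0.0895), and those of Eif4ebp1, Wars and Aars with library size scaling (0.0671 to 0.322). With the block, higher values were 0.81 ± 0.22 for Atf5 (0.00839 against 0.0619), 0.54 ± 0.16 for Atf4 (0.0172 against 0.0917) and 0.45 ± 0.17 for Nars (0.0492 against 0.198), and lower values were -0.61 ± 0.16 for Pck2 (0.00801 against 0.124) and -0.57 ± 0.16 for Aldh18a1 (0.00988 against 0.0769).

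Further genes of the pathway were read from the same fits, in which 16.3% of all genes tested were higher and 14.3% lower with LPS at an adjusted p below 0.05. Upstream, 5 of the 13 eIF2 kinases, phosphatase parts and exchange factor subunits tested had an adjusted p below 0.05 between LPS and control, 3 higher and 2 lower, a share near that of all genes. The kinase of double-stranded RNA, Eif2ak2 (PKR), was higher (1.38 ± 0.28, edgeR adjusted p = 0.00558), and so was Impact, which restrains the amino acid sensor kinase (1.05 ± 0.22, 0.00597). That kinase, Eif2ak4 (GCN2), was lower (-0.98 ± 0.23, 0.0111). With the replicate block Eif2ak2 and Impact were lower in AGE+LPS than in LPS cells, at -1.02 ± 0.10 (edgeR adjusted p = 2.9e-16, against 0.147 without it) and -0.94 ± 0.10 (3.6e-14 against 0.119), and in FruArg+LPS cells they were at -0.83 ± 0.18 (0.000393 against 0.4) and -0.97 ± 0.17 (1.8e-05 against 0.234).

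Of 20 further ATF4-linked genes, 17 were tested and 12 passed with LPS, 9 higher (16.3% of all genes) and 3 lower (14.3% of all genes), with a median log2 fold change of 0.67. The cystine transporter Slc7a11, which like Slc7a5 pairs with the heavy chain CD98, was the highest (3.64 ± 0.27, edgeR adjusted p = 3.2e-05). It went from 124 and 153 CPM in control to 1430.3 and 1937 CPM in LPS libraries. Atf3 (2.36 ± 0.23, 0.000113) and Sqstm1 (2.71 ± 0.27, 0.000118) also rose, while the neutral amino acid carriers Slc1a4 (-1.73 ± 0.36, 0.00632) and Slc1a5 (-1.15 ± 0.29, 0.0157) fell, as did Cebpa (-2.26 ± 0.27, 0.000334). Gdf15, a secreted stress cytokine, rose with LPS (1.81 ± 0.29, 0.0014) and was higher than in LPS cells in both co-treatments when the replicate block was used. The values were 0.94 ± 0.10 in AGE+LPS (edgeR adjusted p = 2.1e-14, against 0.246 without the block) and 1.51 ± 0.18 in FruArg+LPS (4.6e-10 against 0.212).

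The 9 cytosolic synthetases outside the list gave 2 higher (Rars and Kars) and 1 lower (Vars, -1.34 ± 0.35, edgeR adjusted p = 0.017) with LPS. Among 17 mitochondrial synthetases 4 passed, all lower (14.3% of all genes), of which Mars2 had the largest change (-1.90 ± 0.35, 0.00316), and the median log2 fold change was -0.53. In related steps, 2 of 15 tested genes were higher and 5 lower. Shmt1 (-1.81 ± 0.27, 0.000981) and Mthfd1 (-1.71 ± 0.22, 0.000463), cytosolic counterparts of the mitochondrial folate enzymes, fell, and so did the proline gene Pycr3 (-1.02 ± 0.28, 0.0231). Of 12 genes of the endoplasmic reticulum's folding machinery, 6 were higher (16.3% of all genes) and 0 lower (14.3%). At an unadjusted p below 0.05 there were 7, a count without a share of all genes. DESeq2 called 0 lower. With library size scaling 2 were higher and 1 lower. The chaperone Hspa5 (BiP) was at 1690.3 and 2213 CPM in control and 5571 and 7119 CPM in LPS libraries (1.74 ± 0.29, edgeR adjusted p = 0.00179).

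ATF4 and C/EBP factors bind a joint element, and its core was searched as TGATGNAA, on both strands, in promoter windows from 250 bases before to 50 bases after the gene start (RefSeq, GRCm38.p6). Of the 33 listed genes with a window, 12 held a match, or 36.4%, against 4.51% of all 27025 genes with a window. Many of the genes were put on the list as known ATF4 targets, so this share is a description of the list. The 12 were Nupr1, Trib3, Chac1, Vldlr, Pycr1, Asns, Pck2, Aars, Gars, Iars, Tars and Yars, which include genes with higher levels in LPS cells (Nupr1, Trib3, Aars), lower levels (Pck2, Iars, Yars) and no passing difference (Asns, Gars, Tars, Chac1). For 4 of them the match and its surroundings are shown 5′ to 3′ on the strand of the gene, with the match in capitals, because the genes differed in direction with LPS. In Asns the motif reads on the strand of the gene, and in the others on the opposite strand. The stretches lie around the match, before the RefSeq gene start or up to it, at chr7:126625547-126625606 (minus strand, Nupr1), chr8:111033704-111033763 (plus strand, Aars), chr6:7693210-7693258 (minus strand, Asns) and chr14:55540137-55540196 (plus strand, Pck2). Aars holds a further match, 9 bases after its start, that is not shown. The match shown begins 110 bases before the start of Nupr1, 112 before that of Aars, 23 before that of Asns and 103 before that of Pck2. These starts are those of RefSeq. The Nupr1 stretch lies within the longer Ensembl gene given above. That of Aars also lies within its Ensembl gene, and that of Asns overlaps its own.
Nupr1: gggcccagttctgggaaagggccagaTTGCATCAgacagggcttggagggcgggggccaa
Aars: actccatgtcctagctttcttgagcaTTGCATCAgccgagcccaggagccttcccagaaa
Asns: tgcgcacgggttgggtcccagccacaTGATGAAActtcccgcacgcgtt
Pck2: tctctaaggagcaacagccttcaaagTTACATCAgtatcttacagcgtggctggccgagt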

How the data were processed

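As deposited by the authors, the count table holds raw counts per Ensembl gene. Per the paper's methods, reads were clipped, trimmed and filtered with fastx_toolkit, mapped to GRCm38 with TopHat2 and counted with featureCounts. The methods name TRIzol for RNA extraction and the labels an RNeasy kit. Each pair of groups was fitted in edgeR 4.0.16 (filterByExpr, TMM, quasi-likelihood F-test), and p was adjusted over every gene tested. Alternatives were DESeq2 1.42.0, RLE factors, library size scaling, other count filters, the 4 groups in 1 fit, the lane as a replicate block, no minimum fold change, and each library left out. The pairing by lane comes from the labels. In a fit of a pair of groups with that block, little replication is left to gauge a gene's own spread. The SE and adjusted p with the block therefore rest largely on a spread shared between genes. Over 12873 genes, the difference between replicates correlated between groups with r from 0.244 to 0.628.

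Fold changes were given for members with an adjusted p below 0.05 without or with the replicate block, and always for Atf4, Ddit3, Trib3, Chac1 and Asns with LPS. Other members were given by level, range and count. Members and all lists (roles, eIF2 genes, further ATF4-linked genes, other cytosolic and mitochondrial synthetases, related steps, folding genes, cell type markers, LPS check) were chosen with earlier results of these data known. Genes named from the further lists were chosen after their values were seen.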

Additional observations from a re-analysis of the deposited data

Results flagged for a closer look

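A pair of transporter genes differed between the co-treatments when these were tested against each other with the replicate block. Slc3a2 was higher in FruArg+LPS than in AGE+LPS cells (0.69 ± 0.17 on the log2 scale, edgeR adjusted p = 0.0272), and Slc7a5 was lower (-1.08 ± 0.25, edgeR adjusted p = 0.0211). Without the block the adjusted p was 0.837 and 0.837 in edgeR. The lanes were unequal for Slc7a5, with -1.36 in lane 3 and -0.79 in lane 6. The cause was not tested.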

How the results depend on the processing

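Between LPS and control cells all 11 DEGs of the list kept an adjusted p below 0.05 under each alternative fit, and 65 of 160 levels moved by more than 1 SD with CPM by library size. With library size scaling 10 genes of the list were lower DEGs in LPS cells and 1 in AGE+LPS cells, and in LPS against control 8 genes that passed with neither scaling changed sign, Chac1 (-0.13), Asns (-0.32), Cebpg, Sesn2, Slc38a2, Mthfd2, Gars and Lars, the lowest at -0.42. With no minimum on the fold change, 14 were higher and 8 lower with LPS, and 11 higher and 1 lower with AGE+LPS against control.

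With the replicate block, AGE+LPS against LPS gave 3 higher and 2 lower DEGs of the list and 1199 of all genes, FruArg+LPS against LPS 2, 2 and 766, and FruArg+LPS against AGE+LPS 1 lower and 107. The replicate block changed no other count of DEGs by more than 1.5 times.

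With at least 1 count as the filter, these counts were 2, 2 and 927 for AGE+LPS against LPS, 2, 2 and 503 for FruArg+LPS against LPS, and 40 of all genes for FruArg+LPS against AGE+LPS. DESeq2 gave 2, 2 and 529 for AGE+LPS against LPS, and 2 lower and 196 for FruArg+LPS against LPS. With 4 groups in 1 fit there were 1 higher and 376 for AGE+LPS and 5 of all genes for FruArg+LPS against LPS. Adding the replicate block to that fit gave 2, 2 and 895, then 2, 2 and 853, and for FruArg+LPS against AGE+LPS 2 lower and 151.

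With 1 library left out, AGE+LPS against control gave 0 to 1 lower DEGs of the list, and FruArg+LPS against control 1448 to 3416 of all genes. AGE+LPS against LPS gave 0 to 2 higher, 1 to 2 lower and 349 to 646 of all genes. FruArg+LPS against LPS gave 0 to 3 higher, 0 to 2 lower and 5 to 1549, and FruArg+LPS against AGE+LPS 10 to 233. The highest of these FruArg+LPS counts over all genes came without replicate 2 of FruArg+LPS. The AGE+LPS against LPS value of Shmt2 was -0.0187 without replicate 2 of LPS (range -0.0187 to 0.61), and that of Ppp1r15a was 0.0084 without replicate 2 of AGE+LPS (range -1.26 to 0.0084). In these fits the lone library is assumed to vary like the other group. The cause was not tested for any of these differences.

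Depth limits Chac1, Pycr1, Cth and Vldlr most, and also Stc2 in the FruArg+LPS libraries (11 and 15 counts). The control library of replicate 1 is the shallowest. By library total, without TMM factors, 3 counts correspond to 0.249 to 1.11 CPM.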
